A study of Mus musculus with 12 samples.

Results

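The genes described here are 10 members of transforming growth factor beta (TGF-beta) and activin signalling, out of 27670 genes named on a mouse expression array. They were chosen by symbol: the ligand genes Tgfb1, Tgfb2, Tgfb3, Inhba and Inhbb, the receptor genes Tgfbr1, Tgfbr2 and Tgfbr3, and the inhibitor genes Fst and Smad7. All non-control probes of these genes were taken, which gave 14 of the 41174 probes. Of these, 13 passed the filter on dim probes. The remaining probe, of Tgfbr2, did not pass. Where several probes of a gene passed, the probe with the highest mean signal stood for the gene, so all 10 genes were tested. Each of these 10 probes was well above background on all 12 arrays, by the scanner's own call, and none was saturated.

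The cells were mouse embryonic fibroblasts (MEFs), primary cells grown here from E12.5 embryos on a C57Bl/6 background. The study compared the glucocorticoid response of cells that carry the wild-type glucocorticoid receptor (GR) gene with that of cells that can make 1 translational isoform of the receptor. The 4 groups were homozygous GR-C3 knockin cells given 100 nM dexamethasone (Dex, a synthetic glucocorticoid) for 6 hours, GR-C3 knockin cells given vehicle for 6 hours, wild-type (WT) cells given 100 nM Dex for 6 hours, and WT cells given vehicle for 6 hours. In the knockin allele, exon 2 of Nr3c1 keeps the start codon of GR-C3, while the start codons of the other 7 translational isoforms are mutated. The knockin mice go back to 1 embryonic stem cell clone. Each group held 3 one-colour arrays. The labels call them biological replicates and do not name the embryos or cultures behind them. The p-values therefore reflect how far these 12 samples scatter, which may be technical in part.

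TGF-beta ligands are secreted in latent form. Once active, they bind the receptor kinase TGFBR2, which recruits and phosphorylates TGFBR1, and TGFBR1 phosphorylates SMAD2 and SMAD3, which enter the nucleus with SMAD4. Activins are dimers of inhibin beta subunits and reach the same SMADs through ACVR2A or ACVR2B and ACVR1B. In fibroblasts the pathway is known for raising collagen and contractile protein genes, and glucocorticoids are known to modulate it.

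Levels are given as the log2 of the signal over the array's own 75th percentile, and a change is a difference of such levels with its standard error (SE, written ±). Levels of different genes come from different probes and are not compared. A change was called where its Benjamini-Hochberg adjusted p, from limma over all 20842 genes, was under 0.05. The 75th percentile lay between 884 and 1821 on the 12 arrays. WT vehicle replicate 1 stood apart. Fkbp5, a well-known GR target, was at 0.46, 0.94 and 0.96 in GR-C3 Dex cells, at -2.24, -2.38 and -2.24 in GR-C3 vehicle cells, at 2.15, 1.89 and 2.06 in WT Dex cells, and at 1.51, -2.64 and -2.74 in WT vehicle cells. Per1, another GR target, was likewise at 1.66 on WT vehicle replicate 1, against -0.39 and -0.46 on the other two arrays of that group. The values of WT vehicle replicate 1 thus go against its label. It was also alone on its slide and on its scan day. Called results are therefore given with all 12 arrays and with the 11 arrays that remain without it. In the text, Dex against vehicle in WT cells rests on 2 vehicle arrays whenever 11 arrays are named.

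The sequences of 3 probes are shown because they are what the array measured for Inhba, Fst and Tgfb1. They have 60 bases each and positions in build mm7, per the file headers, and exon and UTR annotation of that build was not used here. The Inhba probe lies at chr13:15394279-15394338 on the plus strand. The Fst probe lies at chr13:111626922-111627594 on the minus strand, a span of 673 bases that is longer than the probe. The Tgfb1 probe lies at chr7:22478890-22478949 on the plus strand and was spotted 10 times on each array, and these spots were averaged. Each has at least 1 forward reading frame without a stop codon.
Inhba probe: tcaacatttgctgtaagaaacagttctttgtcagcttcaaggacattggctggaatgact
Fst probe: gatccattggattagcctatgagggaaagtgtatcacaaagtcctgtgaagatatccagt
Tgfb1 probe: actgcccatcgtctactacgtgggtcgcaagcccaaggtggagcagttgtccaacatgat

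The 250 bases before the start site are shown for Tgfb2 and Inhba, 2 of the 3 ligand genes called with Dex in GR-C3 cells on 11 arrays. The other is Inhbb, whose window held none of the motifs searched. They are RefSeq sequences of build GRCm38.p6, chr1:186705990-186706239 on the minus strand for Tgfb2 and chr13:16011601-16011850 on the plus strand for Inhba. Of the 10 genes, 6 were searched, in 7 windows. Smad7 was left out of the search, and Fst, Tgfb3 and Tgfbr3 had no usable sequence. Capitals mark matches on either strand to 7 motifs. The GR half-site was searched as AGAACA. The full GR site was that half-site and its reverse complement TGTTCT with a gap of 3 bases, so it overlaps the half-site. The Smad box was searched as CAGAC. The AP-1 site was searched as TGANTCA. For the cyclic AMP response element (CRE) the letters searched were TGACGTCA, a palindrome. The E-box was searched as CACGTG. The letters of the TATA box were TATAAA.
Tgfb2 upstream: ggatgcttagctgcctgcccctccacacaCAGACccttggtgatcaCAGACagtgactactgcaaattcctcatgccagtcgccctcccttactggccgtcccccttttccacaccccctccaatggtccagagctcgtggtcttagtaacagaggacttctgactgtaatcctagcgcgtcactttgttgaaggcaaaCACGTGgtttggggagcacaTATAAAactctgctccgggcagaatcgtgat
Inhba upstream: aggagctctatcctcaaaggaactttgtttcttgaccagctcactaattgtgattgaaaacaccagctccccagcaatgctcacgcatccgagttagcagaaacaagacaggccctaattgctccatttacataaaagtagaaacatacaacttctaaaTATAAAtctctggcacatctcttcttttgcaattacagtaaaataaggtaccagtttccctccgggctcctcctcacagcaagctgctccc

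In the Tgfb2 window, Smad boxes began at positions -221 and -204, an E-box at -51 and a TATA box at -31, counted from the start site. In the Inhba window the letters TATAAA began at -91. Neither window held the GR site or the GR half-site, and neither did any of the 7 windows. Over all 32851 windows of the same length, 0.00913% held the GR site, 16.1% the half-site, 42.2% a Smad box, 6.75% an AP-1 site, 1.55% a CRE, 6.02% the E-box and 12.4% TATAAA. These matches describe letters only.

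**Figure D1:**
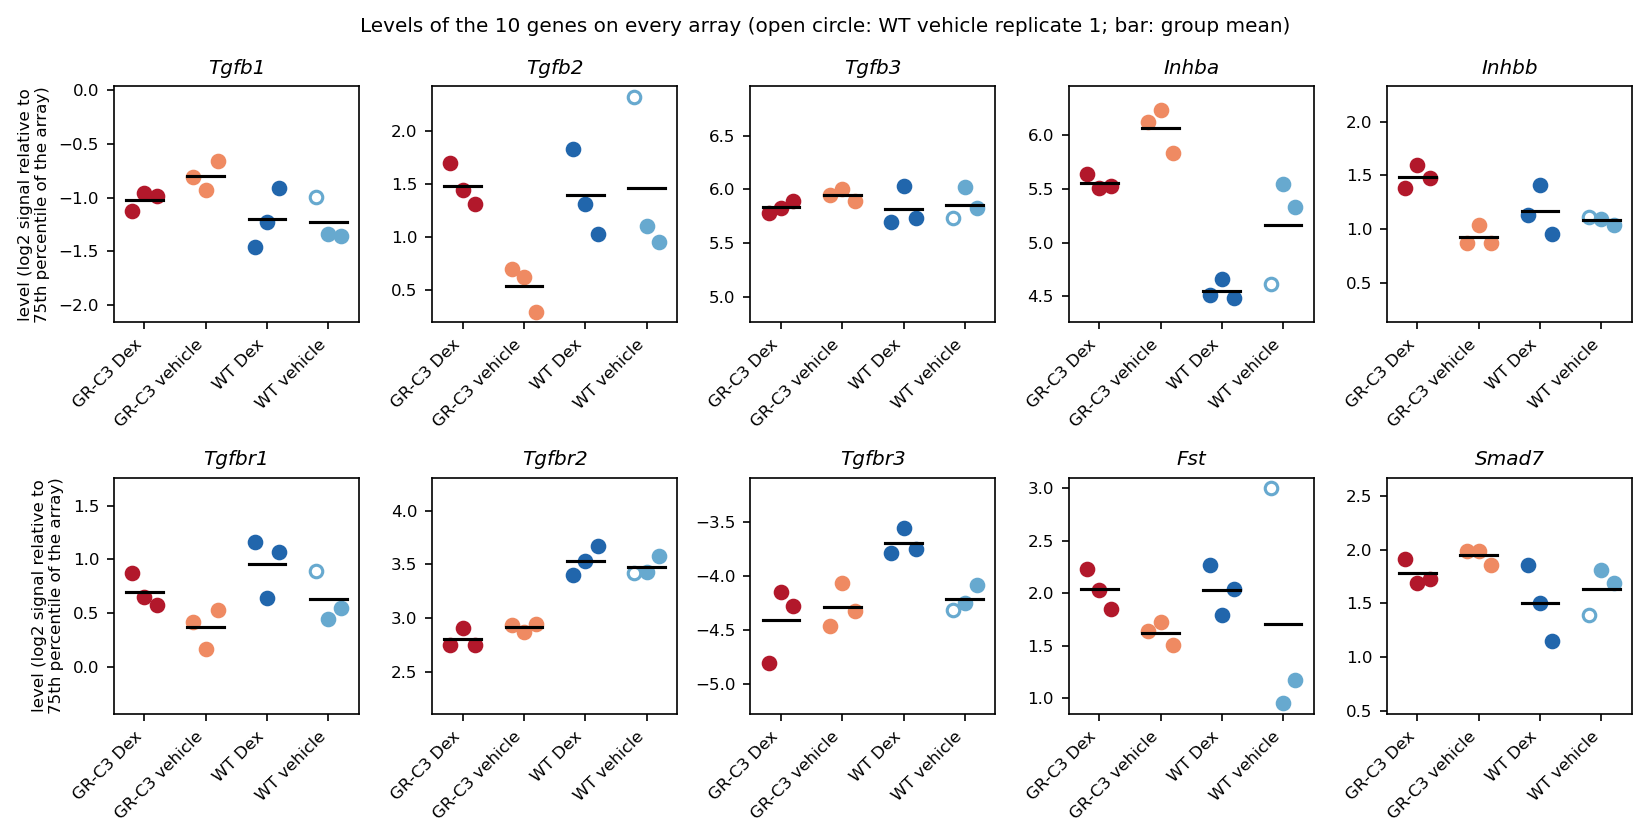
Level of each of the 10 genes on every array (vertical axes, log2 of the signal over the array's 75th percentile, each panel with its own range), with GR-C3 Dex, GR-C3 vehicle, WT Dex and WT vehicle from left to right. Points are arrays, bars are group means over 3 arrays and the open circle is WT vehicle replicate 1, at 4.61 for Inhba and 3.00 for Fst.

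Inhba encodes the inhibin beta A subunit, whose dimer is activin A. It was higher in GR-C3 cells than in WT cells under both treatments, and it was the 1 gene of the 10 whose group means spanned more than 1 log2 unit, 1.51. Inhba was at 5.64, 5.51 and 5.53 in GR-C3 Dex cells, at 6.12, 6.23 and 5.83 in GR-C3 vehicle cells, at 4.51, 4.66 and 4.48 in WT Dex cells, and at 4.61, 5.54 and 5.33 in WT vehicle cells. From high to low the group means ran from GR-C3 vehicle through GR-C3 Dex and WT vehicle to WT Dex. GR-C3 Dex and WT vehicle, which differ in both genotype and treatment, came close to each other, with the highest WT vehicle array inside the GR-C3 Dex range. Under vehicle, all GR-C3 arrays lay above all WT arrays. The same held under Dex. Under Dex the difference was 1.0 ± 0.20, or 2.01-fold, with adjusted p = 0.0045 on 12 arrays and 0.000132 on 11. Under vehicle it was 0.90 ± 0.20 with adjusted p = 0.00903 on 12 arrays, and 0.63 ± 0.13 with adjusted p = 0.0063 on 11.

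Inhba fell with Dex in both genotypes in the fit on 11 arrays. In WT cells it fell by 0.88 ± 0.13, or 1.84-fold (adjusted p = 0.00188), and the WT Dex arrays did not overlap with the 2 remaining vehicle arrays. In GR-C3 cells it fell by 0.50 ± 0.12, or 1.42-fold (adjusted p = 0.0467), again without overlap. When the same limma fit was adjusted over all probes that passed the filter, the adjusted p was 0.0531 and this fall was not called. On 12 arrays the changes were -0.61 ± 0.20 in WT cells and -0.50 ± 0.20 in GR-C3 cells (adjusted p of 0.197 and 0.376), with the larger SE shown, and neither was called. The Dex change in GR-C3 cells minus that in WT cells was 0.10 ± 0.29 on 12 arrays (adjusted p = 0.965) and 0.38 ± 0.17 on 11 (adjusted p = 0.362). The 95% interval of that difference ran from -0.01 to 0.77 on 11 arrays. The slide block gave 0.65 (adjusted p = 0.349).

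With 11 arrays, the fall of Inhba in WT cells was called in each of 11 fits that left out a further array, whereas the fall in GR-C3 cells was called in 2 of 11. Slides shared by Dex and vehicle arrays gave the same direction. On the slide with 1 WT Dex and 2 WT vehicle arrays, Inhba averaged 4.51 with Dex and 5.44 with vehicle. On the slide with 3 GR-C3 Dex arrays and 1 GR-C3 vehicle array it averaged 5.56 with Dex and 5.83 with vehicle. With slide as a block the change was -0.92 in WT cells (adjusted p = 0.0104) and -0.28 in GR-C3 cells (adjusted p = 0.427). These changes equal the differences on the shared slides. No slide held both genotypes under the same treatment. Slide as a block gave genotype differences of 1.33 under Dex (adjusted p = 0.0034) and 0.68 under vehicle (adjusted p = 0.0624, no longer called), which rest on the slide that joins WT Dex and GR-C3 vehicle arrays.

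The genes whose values over the 12 arrays lay closest to those of Inhba, each centred on its own mean, were Ccn4, Slc20a1 and Vcam1 among 15934 genes compared. Their root mean square distances from Inhba were 0.114, 0.135 and 0.144 log2 units. Ccn4, a secreted matrix-associated protein gene, averaged 4.64 ± 0.03 in GR-C3 Dex cells, 5.05 ± 0.03 in GR-C3 vehicle cells, 3.59 ± 0.18 in WT Dex cells and 4.11 ± 0.40 in WT vehicle cells (SD, n = 3 each). Slc20a1 encodes a phosphate transporter and Vcam1 an adhesion molecule. All 3 had their highest group mean in GR-C3 vehicle cells and their lowest in WT Dex cells, the pattern by which they were picked.

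Inhbb encodes the inhibin beta B subunit of activin B. It was at 1.39, 1.60 and 1.48 in GR-C3 Dex cells, at 0.87, 1.03 and 0.87 in GR-C3 vehicle cells, at 1.13, 1.41 and 0.95 in WT Dex cells, and at 1.11, 1.09 and 1.04 in WT vehicle cells. The GR-C3 Dex arrays lay above the GR-C3 vehicle arrays, whereas Dex and vehicle arrays overlapped in WT cells. With Dex in GR-C3 cells the change was 0.56 ± 0.12, or 1.48-fold, with adjusted p = 0.106 on 12 arrays and 0.0338 on 11. In WT cells it was 0.08 ± 0.12 on 12 arrays (adjusted p = 0.769) and 0.10 ± 0.13 on 11 (adjusted p = 0.667). No difference between the genotypes in this answer was called. The difference of changes was 0.48 ± 0.17 on 12 arrays (adjusted p = 0.719) and 0.46 ± 0.18 on 11 (adjusted p = 0.284). A further array left out kept the call in GR-C3 cells in 4 of 11 fits, and slide as a block gave 0.61 with adjusted p = 0.185. The second Inhbb probe was dimmer, averaging -3.65 in GR-C3 Dex cells. It moved by 0.64 ± 0.22 in GR-C3 cells on 11 arrays (adjusted p = 0.177). On 12 and on 11 arrays no genotype difference was called for Inhbb. Under Dex that difference was 0.32 ± 0.12 (adjusted p of 0.0699 and 0.0556), and 2 of 23 other settings called it.

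Tgfb2, which encodes the TGF-beta 2 ligand, was at 1.70, 1.44 and 1.32 in GR-C3 Dex cells and at 0.70, 0.63 and 0.30 in GR-C3 vehicle cells. It was at 1.83, 1.31 and 1.03 in WT Dex cells and at 2.32, 1.10 and 0.96 in WT vehicle cells. The 3 GR-C3 vehicle arrays were the lowest of the 12. With Dex in GR-C3 cells Tgfb2 changed by 0.94 ± 0.33 on 12 arrays (adjusted p = 0.305), and it rose by 0.94 ± 0.20, or 1.92-fold, on 11 (adjusted p = 0.0319). Of the 11 fits with a further array left out, 3 kept that call, and slide as a block gave 1.19 with adjusted p = 0.0238. That block estimate equals the difference on the slide shared by both treatments. There Tgfb2 averaged 1.49 on 3 GR-C3 Dex arrays and was 0.30 on 1 GR-C3 vehicle array, the lowest of the 12.

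In WT cells the Dex change of Tgfb2 depended on WT vehicle replicate 1, the highest of the 12 arrays. It was -0.07 ± 0.33 with that array (adjusted p = 0.938) and 0.36 ± 0.22 without it (adjusted p = 0.321), and was called in neither. The GR-C3 minus WT difference under vehicle was -0.92 ± 0.33 on 12 arrays (adjusted p = 0.0629) and -0.49 ± 0.22 on 11 (adjusted p = 0.132). Under Dex it was 0.09 ± 0.33 on 12 arrays (adjusted p = 0.849) and 0.09 ± 0.20 on 11 (adjusted p = 0.731). The difference between the Dex changes was 1.01 ± 0.46 on 12 arrays and 0.58 ± 0.30 on 11, with adjusted p of 0.807 and 0.411. Slide as a block turned the genotype difference under vehicle to 0.30 (adjusted p = 0.53) and gave 0.68 under Dex (adjusted p = 0.0922). It gave a Dex change of 0.81 in WT cells (adjusted p = 0.0567), and none of these was called.

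Tgfb1, the gene of the TGF-beta 1 ligand, was at -1.13, -0.96 and -0.98 in GR-C3 Dex cells, at -0.80, -0.93 and -0.66 in GR-C3 vehicle cells, at -1.46, -1.23 and -0.91 in WT Dex cells, and at -1.0, -1.34 and -1.36 in WT vehicle cells. Under vehicle the GR-C3 arrays lay above the WT arrays. That difference was 0.43 ± 0.15 on 12 arrays (adjusted p = 0.0643) and was called on 11 arrays at 0.55 ± 0.15, or 1.46-fold (adjusted p = 0.0237). With slide as a block it was 0.09 (adjusted p = 0.854), and 7 of the 11 fits with a further array left out kept the call. Under Dex it was 0.18 ± 0.14 on 11 arrays (adjusted p = 0.316), and the Dex changes were -0.22 ± 0.14 in GR-C3 cells and 0.15 ± 0.15 in WT cells, called in neither. The slide block turned the difference under Dex to -0.16 and the WT Dex change to -0.11, and gave -0.36 for Dex in GR-C3 cells, again without a call.

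Tgfb3, the gene of the TGF-beta 3 ligand, varied least of the 10 genes. Its 12 arrays lay between 5.69 and 6.03, and its group means were 5.83 ± 0.06 in GR-C3 Dex cells, 5.95 ± 0.06 in GR-C3 vehicle cells, 5.82 ± 0.18 in WT Dex cells and 5.86 ± 0.15 in WT vehicle cells (SD, n = 3 each). All groups overlapped with WT vehicle. On 11 arrays the 95% interval of the Dex change ran from -0.35 to 0.12 in GR-C3 cells and from -0.37 to 0.16 in WT cells, and that of the genotype difference from -0.22 to 0.25 under Dex and from -0.24 to 0.29 under vehicle. The slide block gave Dex changes of -0.06 in GR-C3 cells and -0.23 in WT cells, and genotype differences of 0.04 under Dex and -0.13 under vehicle, none of them called.

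Tgfbr2, the gene of the receptor that binds TGF-beta first, was lower in GR-C3 cells under both treatments. It was at 2.75, 2.91 and 2.75 in GR-C3 Dex cells, at 2.94, 2.87 and 2.95 in GR-C3 vehicle cells, at 3.40, 3.53 and 3.67 in WT Dex cells, and at 3.42, 3.43 and 3.57 in WT vehicle cells. Every GR-C3 array lay below every WT array, while Dex and vehicle arrays overlapped within each genotype. Its probe lies at chr9:115760364-115760423 in build mm7, on the minus strand.

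Under Dex the GR-C3 minus WT difference of Tgfbr2 was -0.73 ± 0.10, 1.66-fold lower, with adjusted p = 0.000437 on 12 arrays and 0.000255 on 11. Under vehicle it was -0.56 ± 0.10, 1.47-fold lower, with adjusted p = 0.00262 on 12 arrays, and -0.58 ± 0.10 with adjusted p = 0.00294 on 11. With slide as a block the differences were -0.84 under Dex (adjusted p = 0.0134) and -0.79 under vehicle (adjusted p = 0.0294). All 11 fits that left out a further array kept both calls. The other Tgfbr2 probe that passed the filter carries a different transcript accession and was dimmer, averaging -4.01 in GR-C3 Dex cells. It gave -0.28 ± 0.22 under Dex (adjusted p = 0.363) and -0.44 ± 0.22 under vehicle (adjusted p = 0.179) on 12 arrays, the same direction without a call. The Tgfbr2 probe that did not pass the filter went the other way and was not tested. It averaged -5.91 in GR-C3 Dex and -6.74 in WT Dex cells, and -6.20 and -6.77 under vehicle. It was well above background on 2 of 3 arrays in each GR-C3 group and 1 of 3 in each WT group. The Dex change of Tgfbr2 was -0.12 ± 0.09 in GR-C3 cells and 0.03 ± 0.10 in WT cells on 11 arrays, with 95% intervals from -0.33 to 0.09 and from -0.20 to 0.27. The WT change turned to -0.10 with slide as a block.

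Tgfbr3 encodes betaglycan, a co-receptor that presents TGF-beta 2 and inhibin to the signalling receptors. It was at -4.81, -4.14 and -4.28 in GR-C3 Dex cells, at -4.46, -4.06 and -4.33 in GR-C3 vehicle cells, at -3.78, -3.56 and -3.75 in WT Dex cells, and at -4.32, -4.25 and -4.08 in WT vehicle cells. The 3 WT Dex arrays were the highest of the 12. Under Dex the GR-C3 minus WT difference was -0.71 ± 0.17, 1.64-fold lower, with adjusted p = 0.0109 on 12 arrays and 0.00924 on 11. Slide as a block gave -0.69 with adjusted p = 0.233. Of 23 other settings 20 kept the call on 12 arrays. It was lost with slide as a block and with both normexp background corrections, whose values are given below. The probe was dim, though well above background on all 12 arrays. Under vehicle the difference was -0.07 ± 0.17 on 12 arrays (adjusted p = 0.805) and -0.12 ± 0.19 on 11 (adjusted p = 0.673), and slide as a block gave -0.22.

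With Dex in WT cells Tgfbr3 differed by 0.52 ± 0.17 on 12 arrays (adjusted p = 0.193) and by 0.47 ± 0.19 on 11 (adjusted p = 0.15), without overlap and without a call. In GR-C3 cells the Dex change was -0.13 ± 0.17, with overlapping arrays. The difference of the Dex changes was -0.65 ± 0.24 on 12 arrays and -0.60 ± 0.26 on 11, with adjusted p of 0.751 and 0.336, so a different answer to Dex in the 2 genotypes was not called for this gene.

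Tgfbr1, the gene of the signalling partner of TGFBR2, was at 0.87, 0.65 and 0.58 in GR-C3 Dex cells, at 0.42, 0.16 and 0.53 in GR-C3 vehicle cells, at 1.16, 0.64 and 1.07 in WT Dex cells, and at 0.89, 0.44 and 0.55 in WT vehicle cells. Without WT vehicle replicate 1, Dex arrays lay above vehicle arrays in both genotypes. On 11 arrays the Dex change was 0.33 ± 0.15 in GR-C3 cells (adjusted p = 0.29) and 0.46 ± 0.17 in WT cells (adjusted p = 0.115), and neither was called. The second Tgfbr1 probe changed with Dex by 0.48 ± 0.19 in GR-C3 cells (adjusted p = 0.241) and by 0.00 ± 0.21 in WT cells (adjusted p = 0.995) on 11 arrays. That probe was dim, averaging -5.94 in GR-C3 vehicle cells, where 2 of 3 arrays were well above background. By the probe that stood for the gene, genotype differences were -0.26 ± 0.15 under Dex and -0.12 ± 0.17 under vehicle, again on 11 arrays and not called. The slide block turned the difference under vehicle to 0.10 and that under Dex was -0.39. The Dex changes were then 0.17 in GR-C3 cells and 0.66 in WT cells, and none of these was called.

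Fst encodes follistatin, the secreted protein that binds and neutralises activins. It was at 2.24, 2.03 and 1.85 in GR-C3 Dex cells, at 1.65, 1.72 and 1.51 in GR-C3 vehicle cells, at 2.27, 1.79 and 2.05 in WT Dex cells, and at 3.00, 0.95 and 1.18 in WT vehicle cells. WT vehicle replicate 1 was the highest of all 12 arrays and the other WT vehicle arrays were the lowest. Without that array Fst rose with Dex in WT cells by 0.97 ± 0.16, or 1.96-fold (adjusted p = 0.00372). With it the change was 0.32 ± 0.42 (adjusted p = 0.732).

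In GR-C3 cells the Dex arrays of Fst lay above the vehicle arrays, and the change was 0.41 ± 0.14 on 11 arrays (adjusted p = 0.175) and 0.41 ± 0.42 on 12 (adjusted p = 0.725). On 11 arrays the difference of the Dex changes was -0.56 ± 0.21 (adjusted p = 0.283), which was not called. On the slide shared by WT Dex and vehicle arrays, Fst was 2.27 on 1 Dex array and averaged 1.07 on 2 vehicle arrays. On the slide shared by GR-C3 arrays it averaged 2.04 on 3 Dex arrays and was 1.51 on 1 vehicle array.

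With slide as a block the Dex change of Fst was 1.20 in WT cells (adjusted p = 0.0126) and 0.53 in GR-C3 cells (adjusted p = 0.244). These changes equal the differences on the shared slides just given. The call in WT cells held in 10 of the 11 fits that left out a further array. It was lost without WT vehicle replicate 2, at adjusted p = 0.0549, where 1 WT vehicle array remained and was taken to vary like the others. Under vehicle the GR-C3 minus WT difference changed sign with WT vehicle replicate 1. It was -0.08 ± 0.42 on 12 arrays (adjusted p = 0.903) and 0.56 ± 0.16, or 1.47-fold higher, on 11 (adjusted p = 0.0272). That call was lost with slide as a block, at 0.97 with adjusted p = 0.0547. It was also lost in 4 of the 11 fits that left out a further array, with adjusted p of up to 0.187. Under Dex it was 0.00 ± 0.14 on 11 arrays, with a 95% interval from -0.32 to 0.32, and 0.30 with slide as a block (adjusted p = 0.446).

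Smad7 encodes the inhibitory SMAD that blocks receptor-driven SMAD phosphorylation and is itself a feedback target of TGF-beta. It was at 1.91, 1.69 and 1.73 in GR-C3 Dex cells, at 1.99, 1.99 and 1.86 in GR-C3 vehicle cells, at 1.86, 1.51 and 1.15 in WT Dex cells, and at 1.39, 1.81 and 1.69 in WT vehicle cells. Dex and vehicle arrays overlapped within each genotype. On 11 arrays the Dex change was -0.17 ± 0.16 in GR-C3 cells and -0.24 ± 0.18 in WT cells, with 95% intervals from -0.52 to 0.18 and from -0.63 to 0.15. The genotype difference was 0.27 ± 0.16 under Dex (adjusted p = 0.187) and 0.20 ± 0.18 under vehicle (adjusted p = 0.427). These differences became 0.58 (adjusted p = 0.107) and 0.77 (adjusted p = 0.0765), and the Dex change was -0.08 in GR-C3 cells and turned to 0.11 in WT cells, none of them called, when slide was a block.

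**Figure D2:**
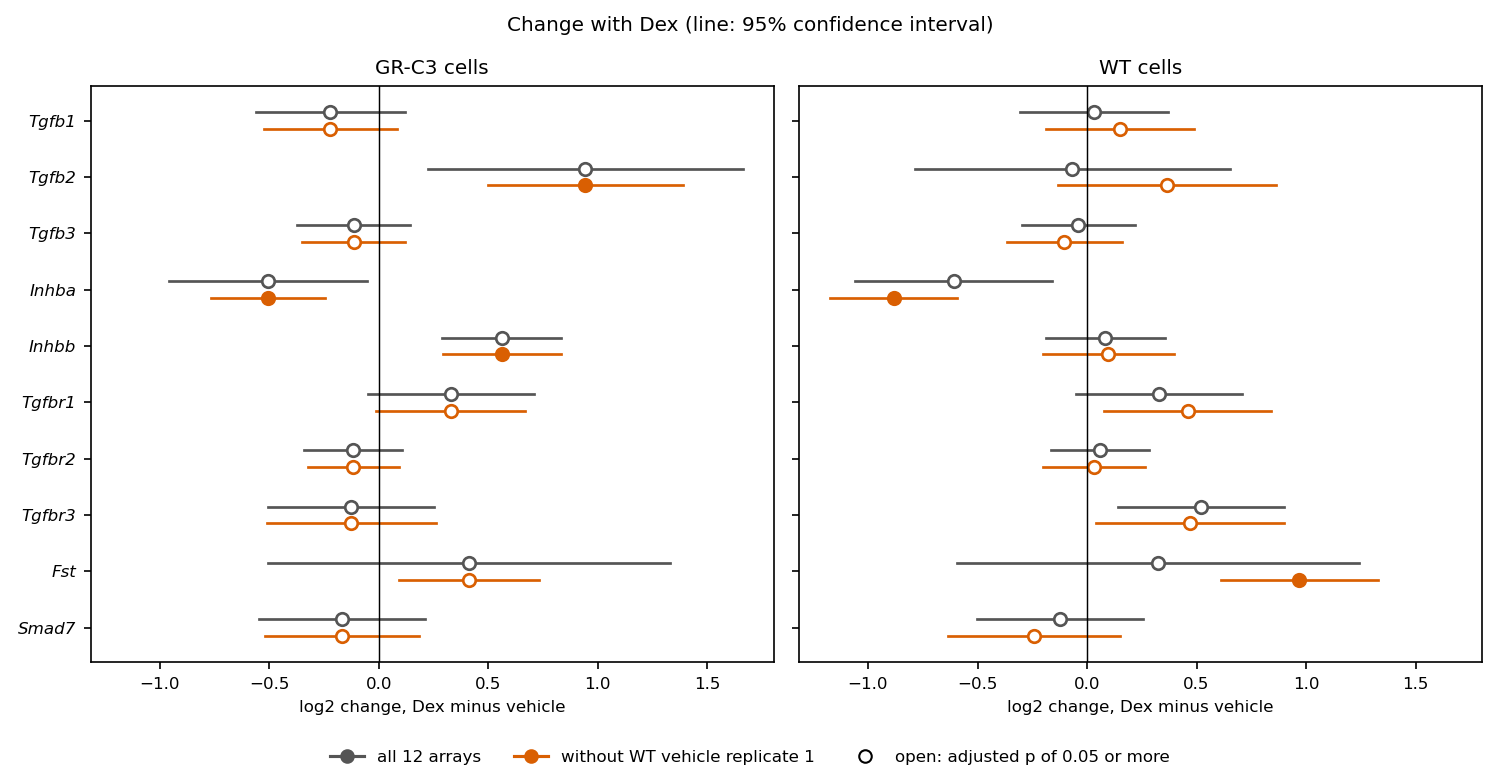
Log2 change with Dex (horizontal axes, Dex minus vehicle) for the 10 genes, in GR-C3 cells on the left and WT cells on the right, with all 12 arrays in grey and without WT vehicle replicate 1 in orange. Lines are 95% confidence intervals and filled points are called; in orange these are Tgfb2, Inhba and Inhbb in GR-C3 cells and Inhba and Fst in WT cells, and no grey point is filled.

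Over the 10 genes, Dex in GR-C3 cells called 0 on 12 arrays by limma, with 3 at an unadjusted p under 0.05, where 0.101% of all genes were called. Dex in WT cells also called 0 on 12 arrays, with 2 at an unadjusted p under 0.05, where 0.120% of all genes were called. On 11 arrays Dex in GR-C3 cells called 3 of 10, with Tgfb2 and Inhbb higher and Inhba lower, against 3.46% of all genes in either direction, 2.09% higher and 1.37% lower. Dex in WT cells called 2 of 10, with Fst higher and Inhba lower, against 12.2% of all genes in either direction, 5.38% higher and 6.85% lower. No GR-C3 array was left out, so the 3 called changes in GR-C3 cells have the same size on 12 arrays. Their SE and adjusted p alone differ.

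The median Dex change of the 10 genes on 11 arrays was -0.11 in GR-C3 cells and 0.12 in WT cells, against -0.01 and 0.02 over all genes. For the difference between the Dex changes, 0 of 10 were called on 12 arrays and 0 of 10 on 11, with 2 and 3 at an unadjusted p under 0.05, where 0% and 1.14% of all genes were called. No gene of the 10 was therefore shown to answer Dex differently in GR-C3 cells than in WT cells. The 3 at an unadjusted p under 0.05 on 11 arrays were Tgfbr3, Inhbb and Fst.

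**Figure D3:**
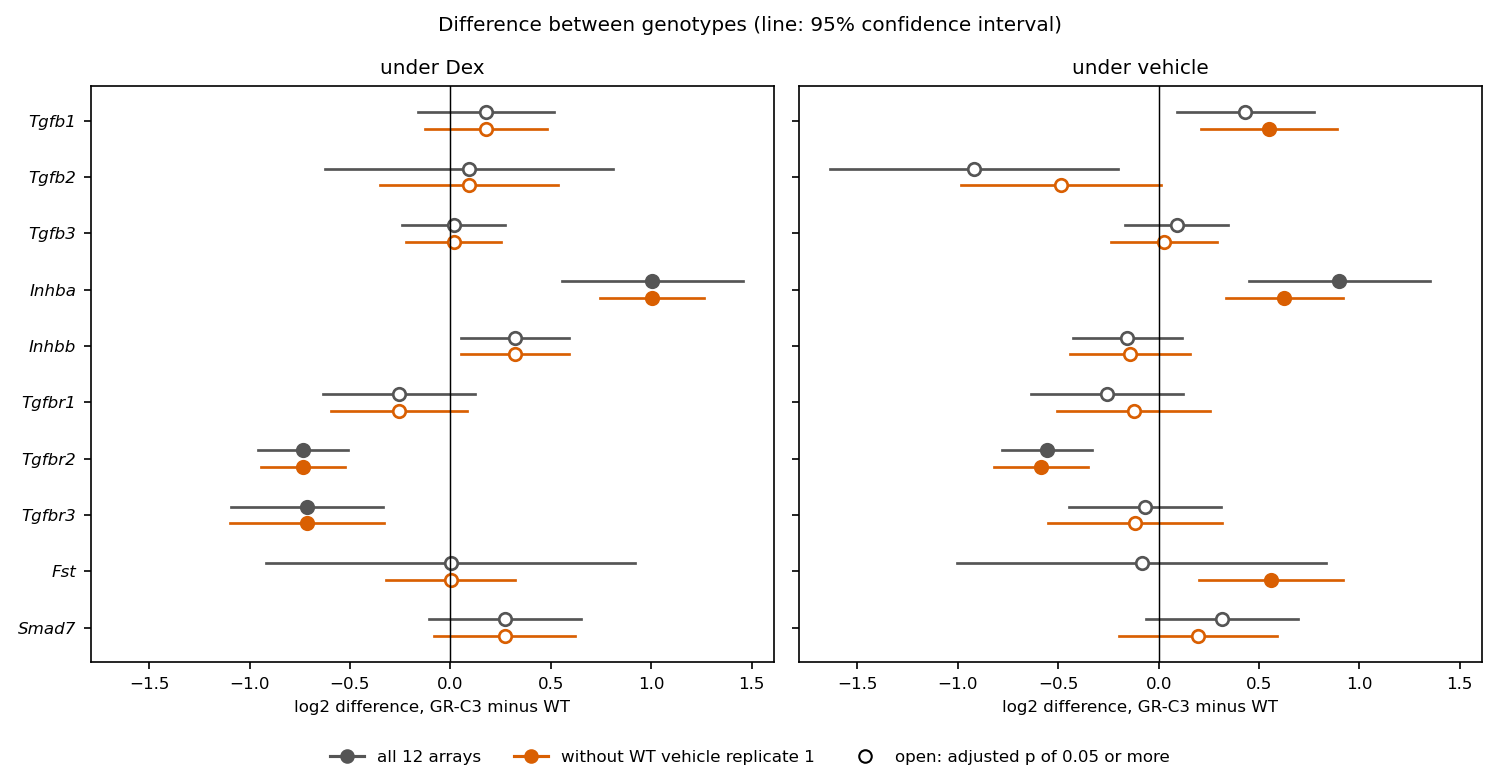
Log2 difference between genotypes (horizontal axes, GR-C3 minus WT) for the 10 genes, under Dex on the left and under vehicle on the right, with all 12 arrays in grey and without WT vehicle replicate 1 in orange. Lines are 95% confidence intervals and filled points are called; Inhba is filled at 1.0 under Dex and Tgfbr2 at -0.73, and both are filled under vehicle as well.

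Between genotypes, 3 of 10 genes were called under Dex on 12 arrays, Inhba higher and Tgfbr2 and Tgfbr3 lower in GR-C3 cells, against 29.6% of all genes. The same 3 were called on 11 arrays, against 40.7% of all genes, 24.6% higher and 16.1% lower. Under vehicle, 2 of 10 were called on 12 arrays, Inhba higher and Tgfbr2 lower, against 24.8% of all genes. On 11 arrays 4 of 10 were called, with Tgfb1, Inhba and Fst higher and Tgfbr2 lower, against 27.3% of all genes, 16.2% higher and 11.1% lower. With normexp background correction none of the calls on 12 arrays held, at 1.44 for Inhba, whose adjusted p lay just above the threshold, -0.32 for Tgfbr2 and -1.17 for Tgfbr3 under Dex. With outlying local backgrounds replaced first, the calls of Inhba and Tgfbr2 held under both treatments, and Tgfbr3 under Dex was at -0.37 (adjusted p = 0.102). With shares of 2 to 4 in 10 beside these backgrounds, the counts are no result about the 10 genes as a set. Their median difference was 0.05 under Dex and -0.08 under vehicle on 12 arrays, against 0.13 and 0.11 over all genes.

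Markers of other cell types differed between the genotypes beside these genes. In each case below, the level is the sum of the listed markers' linear signal over that percentile. The brightest marker therefore weighs most. On average over 12 arrays, Col2a1 was at 3.81 and the next chondrocyte marker at 0.97. Lyz2 was at 2.53 and the next macrophage and blood marker at -1.55. Tubb3 was at 1.75 and the next neural and Schwann marker at -1.91. The top muscle, endothelial and epithelial markers were Des at -0.40, Emcn at -0.07 and Krt18 at -0.48, the next -2.30, -2.73 and -2.90. The 4 chondrocyte markers summed to 5.63 to 6.04 in GR-C3 cells and 43.1 to 56.2 in WT cells, and the 3 that were tested were lower in GR-C3 cells under both treatments. The 4 skeletal muscle markers summed to 2.52 to 3.14 in GR-C3 cells and 0.444 to 0.587 in WT cells, the 5 endothelial markers to 1.93 to 2.58 and 0.606 to 0.797, and the 5 epithelial markers to 1.59 to 2.44 and 0.466 to 0.711. Of the 3 epithelial markers tested, under Dex 2 were called higher and 1 lower in GR-C3 cells. Under vehicle 2 were called higher on 12 arrays and 1 on 11, with 0 lower. Of the 3 skeletal muscle markers tested, 2 were called higher under Dex and 1 under vehicle, on 12 and on 11 arrays. Of the 3 endothelial markers tested, 2 were called higher under each treatment, on 12 and on 11 arrays. The 4 neural and Schwann markers summed to 4.02 to 5.86 in GR-C3 cells and 2.72 to 4.08 in WT cells. Of these, 4 were called higher under Dex and 2 under vehicle on 11 arrays, and 3 and 2 on 12 arrays. The 6 macrophage and blood markers summed to 5.07 to 6.50 in GR-C3 cells and 6.52 to 8.50 in WT cells. On 11 arrays 2 of them were called lower under Dex and 3 under vehicle, and on 12 arrays 2 under each. Of the 3 pluripotency markers, the 1 tested, Sox2, was called higher in GR-C3 cells under both treatments. Nanog and Pou5f1 were above background on 4 and 5 of 12 arrays and were not tested. Of the endothelial and muscle markers, Cdh5 and Myf5 were above background on no array and Pecam1 was so on 6 of 12. Emcn, Kdr, Tek, Myod1, Myog and Des were above background on all 12. All 10 fibroblast markers were above background on every array, with sums of 764 to 908 in GR-C3 cells and 692 to 941 in WT cells. Under Dex 0 of them were called higher and 2 lower on 12 arrays, and 0 and 3 on 11. Under vehicle 1 was called higher and 2 lower on 12 and on 11 arrays. Of all genes, 17.5% were called higher and 12.1% lower under Dex on 12 arrays, and 14.6% and 10.2% under vehicle. On 11 arrays these shares were 24.6% and 16.1% under Dex, and 16.2% and 11.1% under vehicle. The part of these other cell types in the genotype differences of Inhba, Tgfbr2, Tgfbr3, Tgfb1 and Fst was not tested. In bulk RNA, fewer cells of a type and less RNA per cell cannot be told apart.

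The rest of the pathway was read from a list of 68 other genes in 5 roles, of which 67 were measured. With Dex in GR-C3 cells 0 were called on 12 arrays and 0 on 11, where 0.101% and 3.46% of all genes were called. With Dex in WT cells 0 were called on 12 arrays, and on 11 arrays 10 were higher and 5 lower, with a median change of 0.07 over the 67 genes. For comparison, 0.120% of all genes were called with Dex in WT cells on 12 arrays. On 11 arrays 5.38% were called higher there and 6.85% lower.

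Both called receptor genes rose with Dex in WT cells on 11 arrays, out of 9 on the list. Acvr1b encodes the type I receptor through which activins signal. It was at -0.34, -0.38 and -0.41 in GR-C3 Dex cells, at -0.51, -0.50 and -0.37 in GR-C3 vehicle cells, at 0.52, 0.37 and 0.36 in WT Dex cells, and at 0.80, -0.51 and -0.51 in WT vehicle cells. WT Dex arrays lay above every array of the other groups except WT vehicle replicate 1. Acvr1b rose by 0.92 ± 0.09 in WT cells (adjusted p = 0.000138). Acvrl1, the type I receptor known from endothelium, rose by 0.82 ± 0.14 (adjusted p = 0.0044).

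Among the 24 target genes, 6 rose and 2 fell with Dex in WT cells on 11 arrays. Id3, a helix-loop-helix regulator, rose by 0.91 ± 0.12 (adjusted p = 0.0011) and Snai1, a repressor of epithelial genes, by 0.87 ± 0.14 (adjusted p = 0.0028). Ccn1, a matricellular protein gene, rose by 0.45 ± 0.08 (adjusted p = 0.0057). Klf10, an early TGF-beta-induced transcription factor, fell by 0.48 ± 0.09 (adjusted p = 0.0077). Of the 13 inhibitors, Smurf2 and Smurf1, ubiquitin ligases that target receptors and SMADs, fell by 0.65 ± 0.11 and 0.37 ± 0.10, while the activin-binding Fstl3 rose by 0.65 ± 0.17. Of 6 SMADs and adaptors, Smad3 fell by 0.42 ± 0.11 (adjusted p = 0.0323). Of 15 ligand and latency genes, Ltbp4, which encodes a latent TGF-beta binding protein, rose by 0.51 ± 0.13 (adjusted p = 0.0322).

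**Figure D4:**
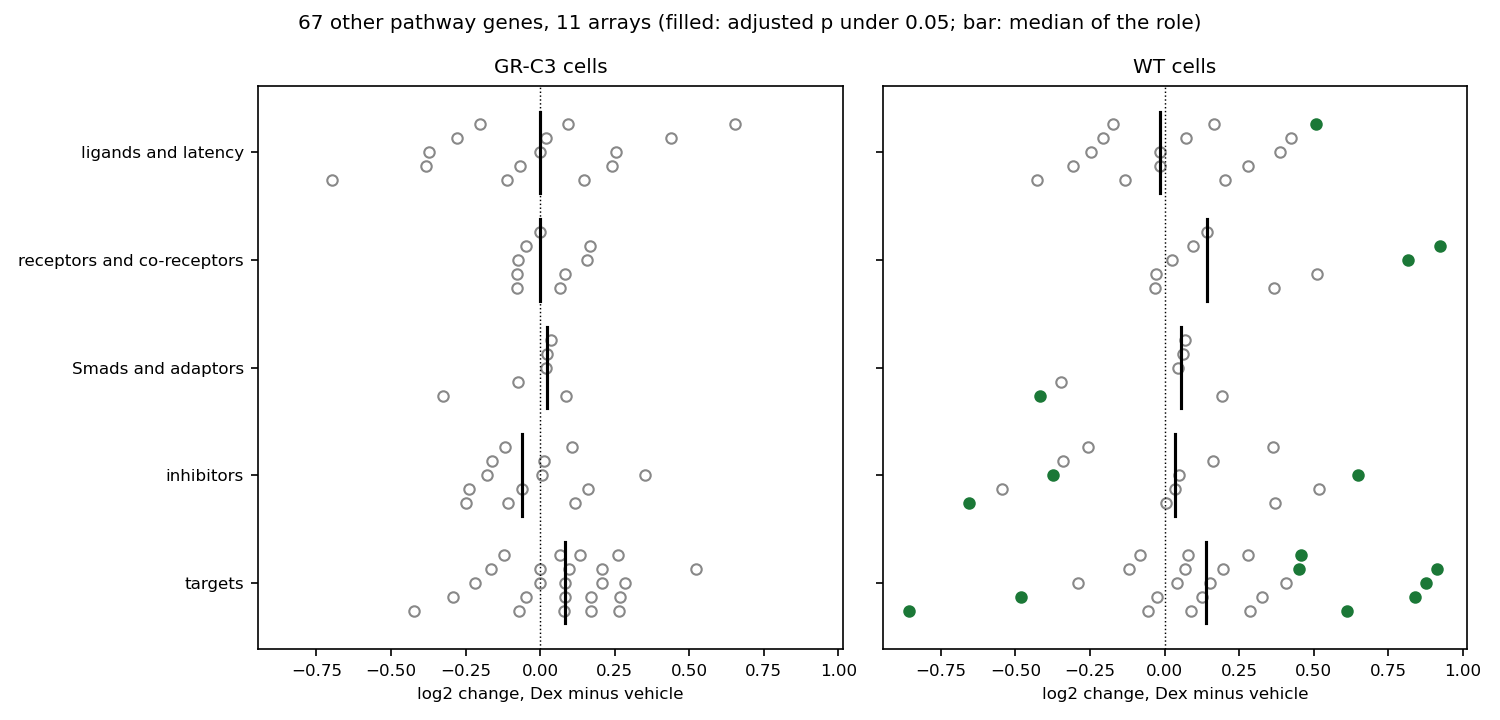
Log2 change with Dex (horizontal axes, Dex minus vehicle) of the 67 other pathway genes by role on 11 arrays, in GR-C3 cells on the left and WT cells on the right. Points are genes, filled where called, and bars are medians of a role; 15 points are filled in WT cells and 0 in GR-C3 cells, and the difference between the genotypes was called for Acvr1b alone.

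The difference between the Dex changes was called for 1 of the 67, Acvr1b, on 11 arrays, at -0.84 ± 0.12 (adjusted p = 0.0125), and for 0 on 12 arrays. The filled points in WT cells beside none in GR-C3 cells do not therefore show a different answer of the other 66 genes. On 12 arrays Acvr1b was called in no Dex comparison.

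Between genotypes 12 of the 67 were higher and 15 lower in GR-C3 cells under Dex, and 13 were higher and 10 lower under vehicle, on 12 arrays. On 11 arrays 14 were higher and 20 lower under Dex, and 15 were higher and 10 lower under vehicle. Of all genes on 12 arrays, 17.5% were higher and 12.1% lower under Dex, and 14.6% were higher and 10.2% lower under vehicle. Of all genes on 11 arrays, 24.6% were higher and 16.1% lower under Dex, and 16.2% were higher and 11.1% lower under vehicle. The counts by role below stand beside the same shares. Genotype differences under Dex have the same size on 11 arrays, where only their SE changes, since no WT vehicle array enters them. Values below are from 12 arrays unless 11 are named.

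Of the 15 ligand and latency genes, 5 were called lower and 0 higher under each treatment on 12 arrays. On 11 arrays 6 were lower and 0 higher under Dex, and 4 were lower and 1 higher under vehicle. The higher one was Nrros, which anchors latent TGF-beta, at 0.37 ± 0.11 (adjusted p = 0.0346), named here after its value was seen. Mstn, the myostatin ligand gene, averaged -6.49 in GR-C3 Dex cells and -6.38 in GR-C3 vehicle cells, against -2.80 in WT Dex cells and -2.68 in WT vehicle cells. It was above background on 2 of 3 arrays in each GR-C3 group and on all WT arrays. Itgb6 encodes the beta subunit of an integrin that activates latent TGF-beta. It averaged -6.09 in GR-C3 Dex cells and -6.74 in GR-C3 vehicle cells, against -4.67 in WT Dex cells and -4.46 in WT vehicle cells. Its signal passed the scanner's background call everywhere except on 2 GR-C3 vehicle arrays. Thbs1, a thrombospondin that activates latent TGF-beta, differed by -0.61 ± 0.17 under Dex and -0.70 ± 0.17 under vehicle. Mstn, Itgb6 and Thbs1 were called lower under both treatments on 12 and on 11 arrays. The latent TGF-beta binding protein gene Ltbp3 was called lower under Dex on both, at -0.56 ± 0.12, but under vehicle its call on 12 arrays was lost on 11 (adjusted p = 0.0994). Ltbp1, of the same family, was called lower under vehicle on both, at -0.60 ± 0.14, and differed by -0.14 ± 0.14 under Dex without a call.

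The activin type II receptor gene Acvr2a was higher in GR-C3 cells, by 0.87 ± 0.12 under Dex (adjusted p = 0.0003) and 0.77 ± 0.12 under vehicle (adjusted p = 0.0008). Under Dex on 11 arrays 4 of the 9 receptor genes were lower, against 2 on 12 arrays. Acvr1b differed there by -0.80 ± 0.08 and was not called on 12 arrays. Eng, an endothelial co-receptor gene, and Bambi, a decoy receptor gene, differed by -0.53 ± 0.18 and -0.33 ± 0.11 under Dex and were called lower on 12 and on 11 arrays. Among the SMADs and adaptors, Smad2 was higher by 0.62 ± 0.13 under Dex and Tgfb1i1 by 0.35 ± 0.09 under Dex and 0.48 ± 0.09 under vehicle. Zfyve9, a membrane anchor for SMADs, was higher by 0.45 ± 0.13 under vehicle, and under Dex it was called on 11 arrays alone.

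Inhibitors moved both ways. Smad6, an inhibitory SMAD that acts mainly on the bone morphogenetic protein branch, differed by -1.18 ± 0.13 under Dex and -0.95 ± 0.13 under vehicle. The matrix proteoglycan Dcn, which binds TGF-beta, differed by -0.96 ± 0.09 and -0.86 ± 0.09, and the co-repressor Tgif2 by 0.89 ± 0.14 and 1.01 ± 0.14. Smurf2 differed by -0.59 ± 0.20 and -0.80 ± 0.20, while Smurf1 differed by 0.62 ± 0.20 and 0.71 ± 0.20. Without WT vehicle replicate 1 the vehicle difference of Smurf1 was 0.43 ± 0.10. All 5 were called under both treatments on 12 and on 11 arrays.

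Of 24 targets, 7 were higher and 4 lower under Dex on 12 arrays, and 7 were higher and 2 lower under vehicle. On 11 arrays 7 were higher and 6 lower under Dex, and 7 were higher and 3 lower under vehicle. Hmga2, a chromatin protein of growing cells, was higher by 1.40 ± 0.16 under Dex and 1.03 ± 0.16 under vehicle. Klf10 was higher by 1.09 ± 0.09 and 0.86 ± 0.09, and Cdkn2b, a cell cycle inhibitor gene induced by TGF-beta in epithelia, by 0.76 ± 0.10 and 0.69 ± 0.10. Tsc22d1, a transcriptional regulator gene, was higher by 0.41 ± 0.09 and 0.65 ± 0.09. Lox, a collagen cross-linking enzyme, was lower by 0.89 ± 0.14 under Dex and 0.83 ± 0.14 under vehicle. These 5 were called under both treatments on 11 arrays as well. The target genes did not share 1 direction between the genotypes.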

How the data were processed

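Scanner files of 12 one-colour Agilent arrays held intensity values on a linear scale, made with Feature Extraction 9.5.3.1 per the file headers (9.5 per the submitters' processing notes). The processed signal is the background-subtracted intensity the authors deposited, and the deposited series matrix equalled it on all 45018 spots within 1e-09. Here log2 signal minus each array's 75th percentile was used, without the 1639 control spots and spots called outliers, averaged over spots of 1 probe. A probe was kept where every array of some group called it well above background (30943 of 41174), named through a RefSeq gene table, and the probe with the highest mean stood for each of 20842 genes.

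Groups came from the labels. A model with 1 coefficient per group was fitted with limma 3.58.1 in R 4.3.3 and tested on simulated data. The 5 comparisons were Dex in each genotype, genotype under each treatment, and the difference of the Dex changes. With 3 arrays a group, an exact permutation test could not go below p = 0.1. Alternatives were background correction with normexp (offset 50), quantile normalization, other dim-probe filters, the mean of a gene's probes, slide or replicate number as a block, fits of only the groups compared, and arrays left out.

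Named were all members, up to 4 called genes per role with the smallest p, 2 GR targets, and for a member with group means spanning at least 1, the 3 genes nearest to it. The members and lists were chosen with earlier results of these data known. Fits on 11 arrays with a further array left out were added after seeing the data. The genome of build mm7 and exon annotation were not used here, and proteins were not analysed here.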

Additional observations from a re-analysis of the deposited data

Results flagged for a closer look

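Acvr1b, the activin type I receptor gene, was singled out because its Dex changes differed between the genotypes by the test of the difference itself. On 11 arrays the Dex change was 0.08 ± 0.08 in GR-C3 cells and 0.92 ± 0.09 in WT cells, a difference of -0.84 ± 0.12 (limma adjusted p = 0.0125). That WT change rests on 2 vehicle arrays, and the difference was not called on 12 arrays. Slide as a block and further left-out arrays were not examined for this gene. Cdkn1a, a cell cycle inhibitor gene, was singled out because its arrays moved in opposite directions on 11 arrays. It was at 3.72, 3.79 and 3.69 in GR-C3 Dex cells and 3.82, 3.80 and 3.95 in GR-C3 vehicle cells, all Dex arrays below all vehicle arrays. It was at 3.98, 4.24 and 4.41 in WT Dex cells and 4.73, 3.55 and 3.65 in WT vehicle cells, with the Dex arrays above the 2 vehicle arrays that remain without replicate 1. The difference of changes was -0.73 ± 0.17, with a limma adjusted p of 0.0745. Dixon's test was not applied to groups of 3 arrays.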

How the results depend on the processing

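The numbers of the 10 genes called were, with all 12 arrays, 0 for Dex in GR-C3 cells, 0 for Dex in WT cells, 0 for the difference of the Dex changes, 3 for genotype under Dex and 2 for genotype under vehicle. Leaving out 1 array at a time gave 0 to 3, 0 to 2, 0 in every case, 3 to 4 and 2 to 4 in the same order. Slide as a block called 1 for Dex in GR-C3 cells, 2 for Dex in WT cells and 1 for genotype under vehicle. Fitting only the groups compared called 2 for Dex in GR-C3 cells and 1 for genotype under vehicle. Normexp called 0 for genotype under Dex and 0 under vehicle, and it moved the median of all genes to 0.55 for Dex in WT cells, -0.46 for the difference of the Dex changes, -0.40 for genotype under Dex and 0.29 for genotype under vehicle. Without WT vehicle replicate 1, quantile normalization called 3 for Dex in GR-C3 cells and 2 for Dex in WT cells. The main fit did not pair the samples by replicate number. Of 12 same-numbered pairs, 2 had deviations from their group means correlated above 0.1 (range -0.215 to 0.180). With deviations from means of 3 arrays, this cannot exclude a pairing. With the replicate number as a block and without that array, 3 were called for Dex in GR-C3 cells, 3 for Dex in WT cells and 5 for genotype under vehicle. The genotype difference of Fst under vehicle, -0.08 on 12 arrays, changed sign to 0.56 without WT vehicle replicate 1 and to 0.49 when the replicate block was added; the cause was not tested. Slide as a block without that array equals the slide block and was not run again. Over all genes, the numbers called under all settings ranged over 0 to 1025 for Dex in GR-C3 cells (21 with 12 arrays), 0 to 3069 for Dex in WT cells (25), 0 to 361 for the difference of the Dex changes (0), 455 to 8819 for genotype under Dex (6175) and 377 to 6726 for genotype under vehicle (5161). Leaving out arrays other than WT vehicle replicate 1 gave 2 to 100 for Dex in GR-C3 cells and 0 to 92 for Dex in WT cells, against 722 and 2548 without that array. Precision is limited by 3 arrays a group.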
